A study of Homo sapiens with 6 samples.

Results

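The genes described here were the bone morphogenetic protein (BMP) ligand BMP4, the BMP receptors BMPR1B and ACVR1, and the inhibitor of DNA binding genes ID1 and ID2, read in cells grown at low or at high density. They were 5 of the 770 genes on the nCounter PanCancer Progression Panel, in which each RNA molecule caught by its probe pair is counted as 1 fluorescent barcode. The 5 genes were chosen by their roles in the pathway and by their values in these same 6 samples, so the comparison of their levels at both densities is a description and is given with no test. All 5 were above the minimum mean of 20 normalized counts that was set for the panel.

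The cells were NIH:OVCAR-3, a long-established line from human serous ovarian cancer, so that 1 line stands for the disease. Both groups were kept for 1 week in RPMI 1640 with 20% fetal bovine serum, glucose, HEPES, sodium pyruvate and 10 µg/ml insulin and differed in cell density. There were 3 low density and 3 high density samples, each with 100 ng of total RNA. A medium density named in the design was not analysed here. Whether the 3 samples of a density were separate cultures is not given in the sources used here, and p-values therefore reflect only how far these samples spread, which may be technical. Serum can itself carry BMP activity, and both groups received the same share of it.

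BMP ligands are secreted dimers that bring together type I and type II receptor kinases on the cell surface. The type I receptor then phosphorylates the receptor-regulated SMADs of the BMP branch (SMAD1, SMAD5 and SMAD9), which enter the nucleus with SMAD4. ID1 and ID2 are among the best known direct targets of this branch. Their products have a helix-loop-helix domain but no DNA-binding region, and they hold basic helix-loop-helix (bHLH) transcription factors away from DNA. Ovarian surface epithelium and ovarian cancer cells are known to make BMP4 and to respond to it with ID gene expression.

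ID1 and ID2 moved in parallel in these samples, and the sequences just before their start sites are shown. The parallel was not particular to this pair. By the root mean square distance described further below, PTTG1 was as near to ID2 as ID1 was (0.06 each). Both windows come from the RefSeq promoter table of GRCh38.p14, hold the 250 bases before the annotated start of the gene, lie on the plus strand and are outside the transcribed region. ID1 is at chr20:31605289-31606510 and ID2 at chr2:8682056-8684461, and the windows are chr20:31605039-31605288 and chr2:8681806-8682055. Capitals mark the SMAD box (GTCT or AGAC), the CCAAT box (CCAAT or ATTGG) and the TATA box (TATAAA or TTTATA), searched on both strands.
ID1: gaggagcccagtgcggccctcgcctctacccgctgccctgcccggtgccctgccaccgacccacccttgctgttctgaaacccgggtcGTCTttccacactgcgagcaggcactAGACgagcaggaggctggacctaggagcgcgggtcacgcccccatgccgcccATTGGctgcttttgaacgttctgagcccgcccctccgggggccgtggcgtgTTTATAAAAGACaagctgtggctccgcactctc
ID2: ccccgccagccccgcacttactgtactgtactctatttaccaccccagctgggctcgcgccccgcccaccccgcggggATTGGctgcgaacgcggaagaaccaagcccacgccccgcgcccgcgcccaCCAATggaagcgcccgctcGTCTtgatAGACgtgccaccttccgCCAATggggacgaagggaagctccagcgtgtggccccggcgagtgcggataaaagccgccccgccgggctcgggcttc

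The ID1 window held 3 SMAD boxes, which began 162, 136 and 25 bases before the start. It also held 1 CCAAT box and overlapping TATA boxes on both strands, the last capitals of which run directly into the third SMAD box. The ID2 window held 2 SMAD boxes, which began 103 and 95 bases before the start, and 3 CCAAT boxes, with no TATA box. A SMAD box is frequent by its length: 77.5% of the 35116 windows of this length in the table had at least 1. A CCAAT box was in 32.0% of them and a TATA box in 10.7%. The longer GC-rich SMAD site GGCGCC (16.4% of all windows) was in neither ID window but was in the first of 3 windows of BMP4 and the first of 3 windows of ACVR1. The E-box CANNTG, the site of bHLH factors (61.8% of all windows), occurred once before ID2 and not before ID1. These are matches of letters in a short window, and SMAD binding was not measured in these samples.

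The ligand BMP4 was higher at low density and nearer to background at high density. At low density it read 57.3, 50.9 and 57.3 normalized counts, and at high density 23.9, 18.8 and 24.4. The groups did not overlap, and every low density sample was well above the background limit (the mean of the negative control probes plus 2 SD), which was 12.3 to 18.1 normalized counts depending on the sample. At high density each reading stayed above its own limit. Replicate 2 (18.8) was only just above its limit of 18.1, whereas the limits of replicates 1 and 3 were 16.5 and 12.5. The means were 55.2 ± 3.70 and 22.4 ± 3.07 (SD, n = 3 each), 2.47-fold higher at low density. In bulk RNA, fewer cells that express a gene and less of its RNA per cell cannot be told apart, here and for the genes that follow.

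The log2 difference of BMP4 was 1.27 ± 0.20 (SE), the 19th largest toward low density. It rested on 57 to 61 barcodes per sample at low density, against 18 to 24 at high density. Counting error alone is then 13.0% and 22.0% of the mean, more than the observed 6.70% and 13.7%. The size of the difference moved with the treatment of the background. It was 1.78 after the mean of the negative controls had been subtracted and 1.01 with a pseudocount of 10.

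The receptors showed small differences in the opposite direction, a direction that ACVR1 lost with scaling to the positive control probes. BMPR1B, a type I receptor for BMPs and growth differentiation factors, read 283, 238 and 267 normalized counts at low density, against 344, 238 and 323 at high density. The groups overlapped, since replicate 2 of high density (237.54) read practically the same as replicate 2 of low density (237.53), the lowest sample of its group in both cases. The means were 262 ± 22.9 and 301 ± 56.3 (SD, n = 3 each). The log2 difference was −0.19 ± 0.08 (SE). That SE took its spread mostly from other panel genes and understates the spread of BMPR1B itself. Its own pooled SD on the log2 scale was 0.22, against 0.03 for ACVR1.

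BMPR1B at high density had the largest coefficient of variation of the 5 genes and exceeded counting error. The coefficient of variation was 18.7% against a counting error of 5.99%, whereas at low density it was 8.73% against 5.97%. Leaving out 1 sample at a time moved the log2 difference between −0.35 (without high density replicate 2) and −0.08 (without high density replicate 1). The direction held in each of these 6 fits, but the size depended on which high density sample was left out.

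ACVR1, the type I receptor also known as ALK2, differed least. It read 431, 453 and 433 normalized counts at low density, against 455, 474 and 466 at high density. The highest low density sample lay just below the lowest high density sample, so the groups did not overlap, by a margin of under 3 counts. The means were 439 ± 11.9 and 465 ± 9.40 (SD, n = 3 each), and the log2 difference was −0.08 ± 0.06 (SE). With a coefficient of variation of 2.71% and 2.02%, below the counting error of 4.61% and 4.82%, its replicates spread no more than counting gives.

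ID1 had the largest log2 difference of the 5 genes. At low density it read 6302, 6082 and 6781 normalized counts in replicates 1 to 3, and at high density 2098, 2031 and 2036. All low density samples lay far above all high density samples. The means were 6389 ± 357 and 2055 ± 37.4 (SD, n = 3 each), a 3.11-fold higher mean at low density. On the log2(value + 1) scale the difference was 1.63 ± 0.04 (SE). Among the 480 panel genes tested, this was the 7th largest difference toward low density. The samples of low density spread more (coefficient of variation 5.59%) than the 1.21% that counting alone gives, whereas those of high density (1.82%) did not exceed their counting error of 2.29%.

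ID2 followed ID1 closely in its difference. It read 846, 836 and 906 normalized counts in low density cells and 298, 281 and 306 in high density cells. Again the groups were far apart, and at low density the order of the 3 samples was that of ID1, with replicate 3 highest and replicate 2 lowest. That order was not particular to the ID genes, since BMPR1A and SMAD1 had it too, while BMP7 did not. At high density replicate 2 was lowest for both, but ID1 was highest in replicate 1 and ID2 in replicate 3. The means were 863 ± 38.2 and 295 ± 12.5 (SD, n = 3 each), 2.92-fold higher at low density, with a log2 difference of 1.54 ± 0.06 (SE). This was the 8th largest difference toward low density, next to that of ID1.

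The gap between ID1 and ID2 within a sample does not depend on the factor that scales the sample. On the log2 scale ID1 lay 2.86 to 2.90 above ID2 in the low density samples and 2.73 to 2.85 above it in the high density samples. Those ranges were close but did not overlap, and the mean gap was slightly wider at low density (2.89 ± 0.02 against 2.80 ± 0.06, SD, n = 3 each). Counting error alone was 6.05% of the mean for ID2 at high density and 3.29% at low density. Whether the gap differed beyond counting error was not tested. The probes of different genes capture RNA with different efficiency, so the gap itself is not a ratio of transcripts.

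**Figure D1:**
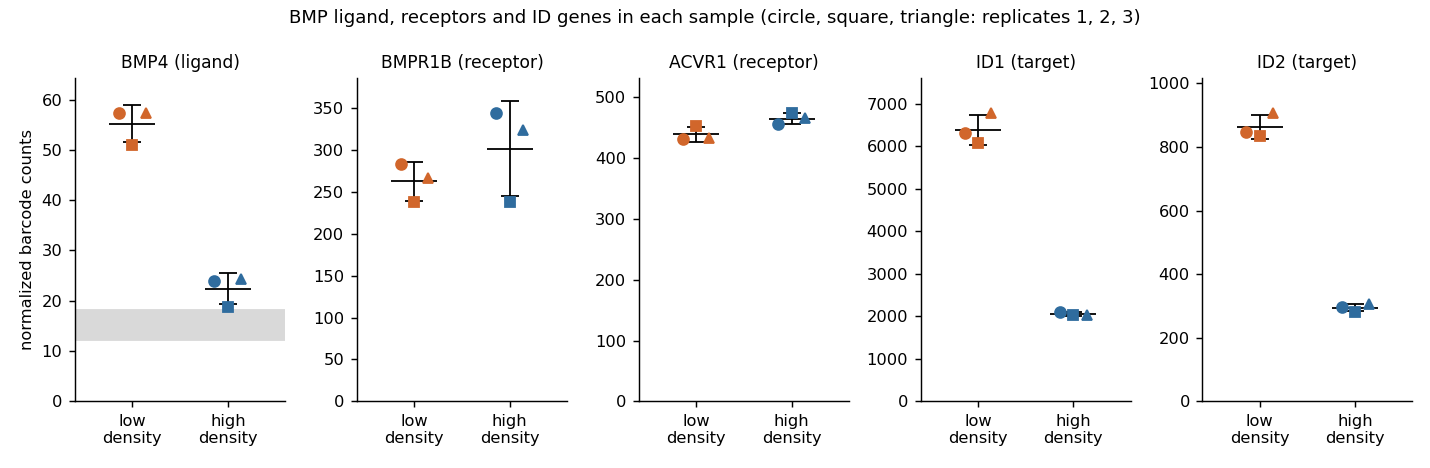
Normalized barcode counts (vertical axes, each from 0) of BMP4, BMPR1B, ACVR1, ID1 and ID2 in the 3 low density (orange) and 3 high density (blue) samples, with the mean and SD in black. The gray band in the BMP4 panel is the background limit of 12.3 to 18.1. BMP4, ID1 and ID2 separate widely, ACVR1 narrowly, and BMPR1B overlaps.

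The direction of ACVR1 depended on the scaling. The deposited values are relative to the panel reference genes, and with scaling to the positive control probes instead the log2 difference of ACVR1 was 0.06, higher at low density. That of BMPR1B was then −0.04, and under quantile normalization −0.30. The same scaling moved the median panel gene from 0.04 to 0.19, so both receptors stayed below the median gene. BMP4 (1.41), ID1 (1.78) and ID2 (1.69) kept their direction and lay further above 0.

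**Figure D2:**
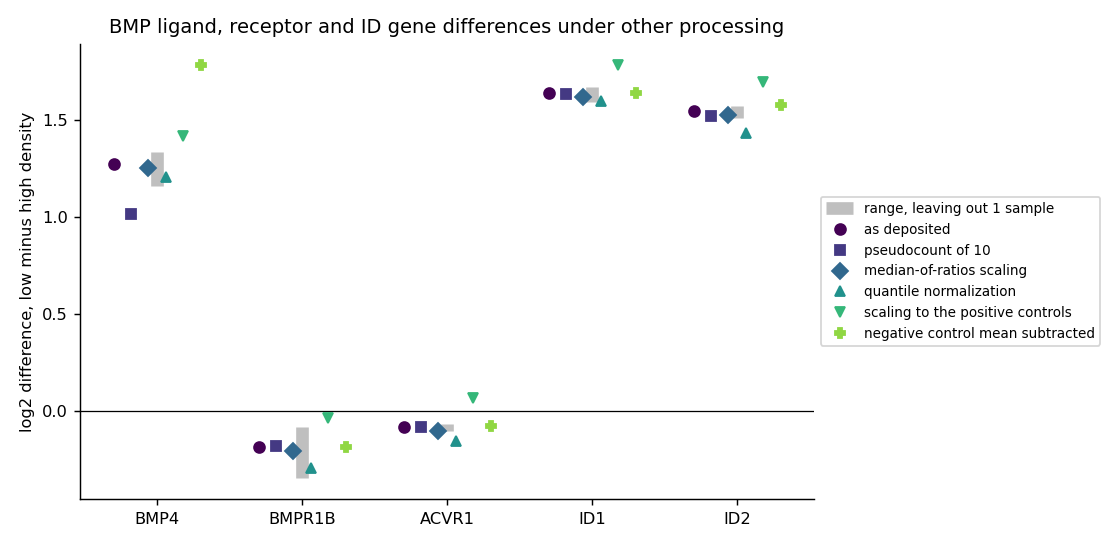
Log2 difference of each gene, low minus high density (vertical axis), with the deposited scaling and under 5 other choices of pseudocount, scaling and background (symbols), and the range when 1 sample is left out (gray bars). BMP4, ID1 and ID2 stay above 1 under every choice shown, while ACVR1 crosses 0 under scaling to the positive controls.

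In 4 of the 5 genes the densities did not overlap, where the same held for 66% of the 480 panel genes tested. A gene was called when its adjusted p was under 0.05 in a limma fit over all 480 genes. No call is given for the 5 genes, since they were chosen with this contrast in view, and nothing is read from their count. Over the panel, 66.2% of genes were called, 38.8% higher and 27.5% lower at low density.

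**Figure D3:**
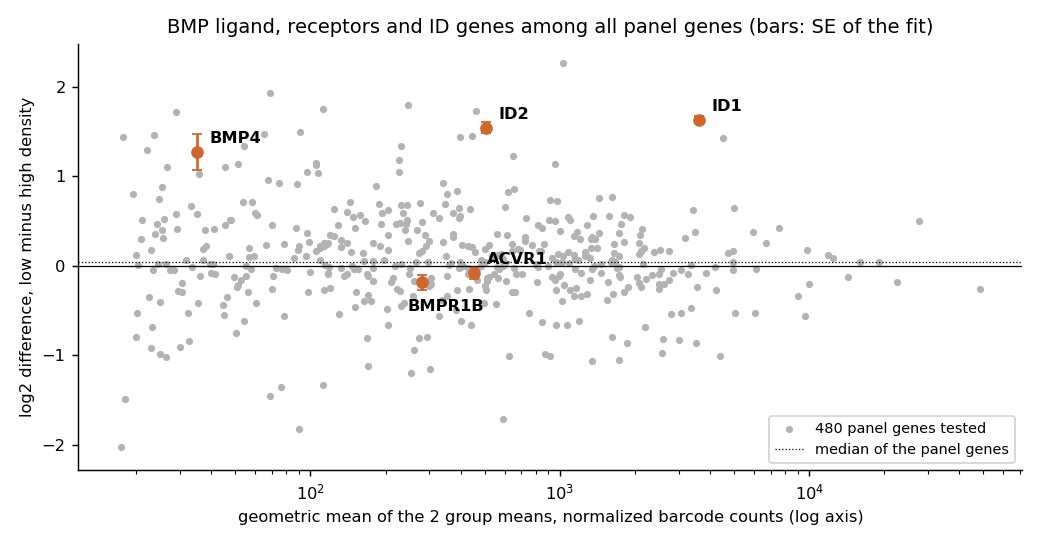
Log2 difference, low minus high density (vertical axis), against the geometric mean of the 2 group means (horizontal log axis, normalized counts) for the 480 tested panel genes (gray) and the 5 BMP pathway genes (orange, with SE). ID1 and ID2 lie among the highest differences, and BMPR1B and ACVR1 lie in the bulk of genes.

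Likeness of pattern was measured as the root mean square distance between genes over the 6 samples, on the log2 scale, after each gene had been centered on its own mean. ID1 and ID2 were 0.06 apart. BMP4 was 0.16 from ID2 and 0.21 from ID1, and the receptors were 0.21 from each other and 0.69 to 0.93 from the other 3. Outside the 5 genes, the pattern of ID1 was most like those of PLEKHO1 (0.09), the laminin chain gene LAMA1 (0.10) and the metalloproteinase inhibitor gene TIMP2 (0.11). ID2 was most like PTTG1, which encodes securin (0.06), the heparanase gene HPSE (0.07) and LAMA1 (0.07). BMP4 was most like the adhesion gene MCAM (0.12), HPSE (0.13) and CCDC80 (0.13). ACVR1 was most like the tight junction gene TJP3 (0.02), the phosphatase subunit gene PPP2CB (0.03) and CLIC4 (0.03), and BMPR1B most like the collagen chain gene COL6A2 (0.08), ARHGDIB (0.12) and FGF9 (0.13). The distance takes in the density difference itself, so it is a description over 6 samples in 2 groups.

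Of 76 other genes listed for the TGF-beta and BMP pathway, 34 were on the panel and 19 were above the minimum. Of these 19, 7 were higher at low density, 4 were lower and 8 did not pass (57.9% called, against 66.2% over the panel). Their median log2 difference was 0.02, and that of all tested genes was 0.04. The split of 7 higher and 4 lower became 6 and 5 with median-of-ratios scaling, whereas quantile normalization gave 5 and 6. Positive control scaling gave 11 and 2.

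Among ligands, the pathway genes moved both ways. BMP7, a BMP that can signal through ACVR1, read 6931, 6768 and 6737 normalized counts in low density samples against 5204, 5330 and 5198 in high density samples. Its groups did not overlap, and it was higher at low density by 0.38 ± 0.03 on the log2 scale (SE, limma adjusted p = 1.8e-24). Under quantile normalization it was higher by 0.19 (adjusted p = 3.3e-05). With the methods' t-test, which uses only the gene's own spread, its adjusted p was 4.05e-04. AMH did not pass (0.02 ± 0.23, adjusted p = 0.953), and BMP5, GDF5 and GDF6 were below the minimum. TGFB1 was higher at low density (0.71 ± 0.16, adjusted p = 4.5e-05). INHBE, which encodes an activin subunit, was lower in sparse cells, with 47.9 ± 10.8 against 170.0 ± 9.14 normalized counts. The log2 difference was −1.83 (limma adjusted p = 1.1e-35, and 0.00265 with the methods' t-test). GDF15, a distant member of the ligand family, was lower too, with 115 ± 11.9 against 250.3 ± 8.97 (−1.12, adjusted p = 1.7e-25). TGFB2 was lower as well (−0.15 ± 0.04, adjusted p = 4.5e-04), but did not pass under positive control scaling (−0.0014, adjusted p = 0.981) and with the methods' t-test (adjusted p = 0.0548).

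The other receptors differed little, as BMPR1B and ACVR1 did. BMPR1A, another type I BMP receptor, had means of 557 ± 29.3 (low) and 517 ± 13.0 (high) and was not called (0.11 ± 0.06, adjusted p = 0.105). The type II receptor gene BMPR2 read 114 ± 12.5 and 122 ± 11.8 and did not pass (−0.09 ± 0.12, adjusted p = 0.520). TGFBR2, the type II receptor of TGF-beta, was just past the threshold (0.11 ± 0.05, adjusted p = 0.0443). It lost its call in 11 of the 17 other settings, among them those without any one low density sample or without high density replicate 1 (0.05, adjusted p = 0.357), and was 0.25 under positive control scaling. ACVR1C and ACVRL1 were below the minimum.

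Among the SMADs, the tested ones that carry the BMP signal did not pass. SMAD1 (−0.09 ± 0.05, adjusted p = 0.102) and SMAD5 (0.06 ± 0.06, adjusted p = 0.385) were measured well above background, with means between 471 and 1036. SMAD9 was below the minimum and not tested. It read 20.4, 17.9 and 27.2 normalized counts at low density, each just above or above the background limit of its sample. At high density it read 15.9, 15.7 and 12.2, each below that limit. SMAD3, which carries the TGF-beta and activin signal, was higher at low density with 517, 520 and 516 normalized counts against 277, 297 and 294 (0.84 ± 0.07, adjusted p = 6.8e-29). SMAD2 did not pass (−0.0018 ± 0.05, adjusted p = 0.978). The shared partner SMAD4 was lower at low density (−0.29 ± 0.06, adjusted p = 9.8e-07), though not past the threshold when scaled to the positive controls (−0.14, adjusted p = 0.0680). These are RNA levels, and phosphorylation of SMADs was not measured.

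Among the antagonists and modulators of the pathway, the ubiquitin ligase genes SMURF1 (0.47 ± 0.09, adjusted p = 4.9e-07) and SMURF2 (0.25 ± 0.04, adjusted p = 2.6e-08) were higher at low density, SMURF2 by 0.40 under positive control scaling. Both target receptors or SMADs of the pathway for degradation. FST, which encodes the activin and BMP binding protein follistatin, did not pass (−0.02 ± 0.04, adjusted p = 0.731), nor did LTBP4 (−0.26 ± 0.15, adjusted p = 0.108). GREM1, a secreted BMP antagonist, was below the minimum and not tested. It read 22.3, 21.4 and 23.5 normalized counts at low density, above the background limits, and 5.98, 10.5 and 6.09 at high density, below them; it is named after its values had been seen.

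ID4, the third ID gene on the panel, had a smaller difference than ID1 and ID2, by values that were not compared in a test. Its low density samples read 997, 1002 and 1087 normalized counts, and its high density samples 940, 906 and 961. The groups did not overlap, and the difference was 0.14 ± 0.05 (SE, adjusted p = 0.00989). The call did not survive the omission of low density replicate 3, which gave 0.10 with an adjusted p = 0.115. Nor did it survive that of high density replicate 2 (0.11, adjusted p = 0.0605), quantile normalization (0.10, adjusted p = 0.0819), a fit with no mean trend (adjusted p = 0.0645) or the methods' t-test (adjusted p = 0.0766). Positive control scaling gave 0.28. TGFBI, listed as a TGF-beta target, was below the minimum.

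**Figure D4:**
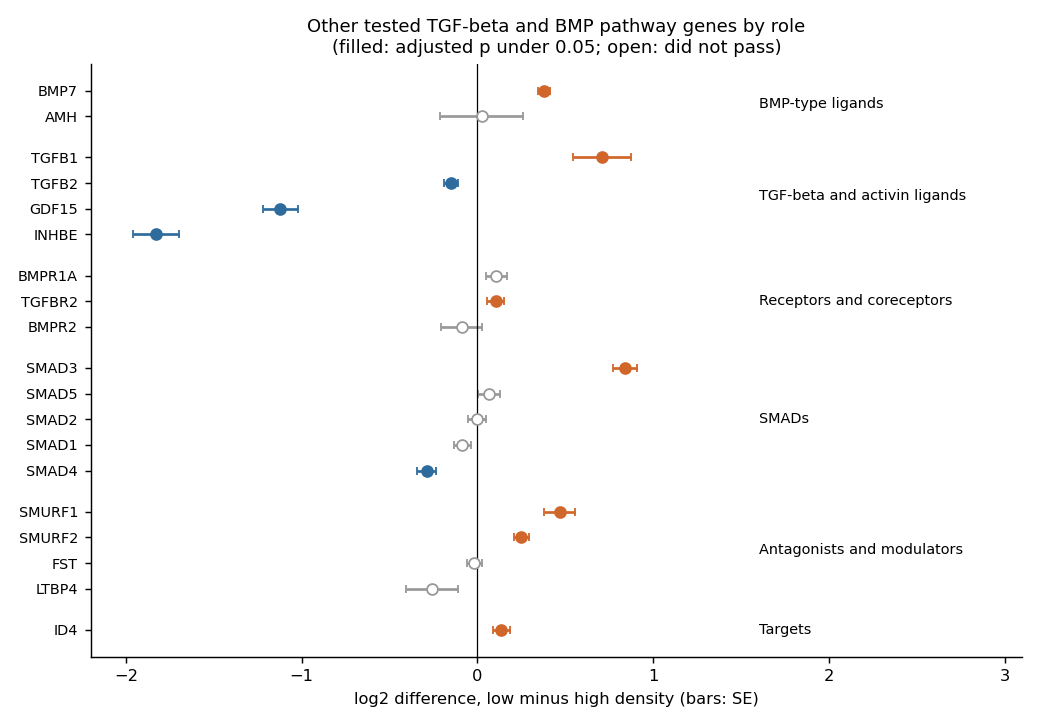
Log2 difference, low minus high density (horizontal axis, bars SE), of the 19 other pathway genes tested, grouped by role; orange and blue mark genes called higher and lower at low density, open circles those that did not pass. SMAD3 and TGFB1 lie furthest to the right, and INHBE and GDF15 furthest to the left.

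Of 16 listed bHLH genes, the family to which the partners of ID proteins belong, 7 were on the panel and 6 were tested, of which 2 were higher and 2 lower at low density. The share called was 66.7%, close to the 66.2% over the panel. TCF3, which encodes the E proteins that ID proteins bind directly, did not pass (0.23 ± 0.15, adjusted p = 0.159) except under positive control scaling (0.38, adjusted p = 0.0209). TCF4, another E protein gene, was lower, with 230.5 ± 32.7 against 289 ± 12.6 (−0.34 ± 0.08, adjusted p = 1.3e-04), a call that positive control scaling took away (−0.19, adjusted p = 0.0582), as did the methods' t-test (adjusted p = 0.0809). TWIST1 did not pass (0.09 ± 0.13, adjusted p = 0.608), and its sign turned under quantile normalization (−0.14) and without high density replicate 3 (−0.01). MYC was lower (−0.50 ± 0.07), and HIF1A (0.31 ± 0.04) and EPAS1 (1.14 ± 0.17) were higher, each with an adjusted p of at most 1.3e-10. These 3 encode bHLH proteins of other subfamilies that pair with their own partners.

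The samples were alike in depth, with 554859 to 696309 barcodes each. All 9 epithelial and serous carcinoma markers on the panel were well above the minimum, with gene means from 274 to 5146. Their summed reading was 20337 to 21140 normalized counts at low and 28040 to 28699 at high density, and its part in the differences above was not tested. Of 17 markers of endothelial cells, leukocytes and fibroblasts, 15 had means below 20, the exceptions being CXCR4 and COL1A1. CXCR4 did not pass (−0.24 ± 0.17, adjusted p = 0.202). The fibroblast marker COL1A1 was higher at low density, as BMP4, ID1 and ID2 were, with 30.1, 40.2 and 36.6 normalized counts against 18.9, 25.1 and 26.8 (0.58 ± 0.21, adjusted p = 0.0123). Of the fibroblast markers below the minimum, FAP went the other way, with 8.74, 8.04 and 9.39 against 17.9, 22.0 and 19.5. PDGFRB was higher at low density, with 10.7, 8.93 and 9.39 against 5.98, 6.28 and 2.44, all under the background limits. The summed reading of all 8 fibroblast markers on the panel was 88.4 to 102 at low and 78.7 to 97.5 at high density, ranges that overlap. The part of such markers in the results was not tested.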

How the data were processed

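Gene expression was read with the nCounter PanCancer Progression Panel in 3 low density and 3 high density samples. The authors deposited a signal for each gene, which the values show to be barcode counts times a sample-specific factor, with the 30 reference genes brought to a geometric mean of 383.27 to 383.28. The tool that scaled them is not given in the sources used here. Control probes were listed unscaled. Under 100 counts, 98.9% to 100% of gene values were whole multiples of one step per sample (tolerance 0.1 count), which gave the barcode counts.

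Reference genes were left out, and genes averaging 20 or more were tested on log2(value + 1) with limma version 3.58.1 in R 4.3.3 (mean trend, two-sided, Benjamini-Hochberg over 480 of 740 genes, no replicate block). The unit called for limma, not for a count test. The prior degrees of freedom of the main fit were 457.1, so each SE and p-value rested mostly on the panel-wide trend. The script was tested on simulated data. The 5 genes and the gene lists were chosen with earlier results of these data known. Named were the 5 genes, all called pathway genes (up to 3 per role and direction) and the 3 nearest genes in pattern. The tested bHLH genes, and pathway genes that did not pass or were below the minimum, were named outside that rule. All 5 symbols matched RefSeq GRCh38.p14 and its promoter table. Alternatives were other filters, pseudocount, scalings, background subtraction, the methods' t-test, thresholds, a replicate block and leaving out each sample.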

Additional observations from a re-analysis of the deposited data

How the results depend on the processing

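ID1 and ID2 stayed higher at low density under all alternatives run. BMP4 did so under all but the filter at a mean of 50, which left it out. Log2 differences that moved by more than the spread between replicates were, with the deposited values in brackets, BMP4 at 1.0122 with a pseudocount of 10 and 1.7825 after background subtraction (1.27), ID1 at 1.7815 with scaling to the positive controls (1.63), ID2 at 1.4320 under quantile normalization and 1.6911 with scaling to the positive controls (1.54), and ACVR1 at −0.1542 under quantile normalization (−0.08). ACVR1 reversed to 0.0638 with scaling to the positive controls; the cause was not tested beyond the shift of the median gene to 0.19.

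Calls numbered 318 over the panel, 11 in the pathway and 4 among bHLH genes. A minimum log2 difference of 0.5 left 146, 4 and 1, by construction. Without 1 sample the counts were 294 to 316, 9 to 11 and 4. Over the panel the share of calls that were higher at low density was 58.5%, 50.7% under quantile normalization and 75.9% with scaling to the positive controls. Replicate numbers did not pair the samples (correlations of same-numbered deviations 0.12, −0.11 and −0.03, and low density replicate 2 correlated best with high density replicate 3, at 0.12). With a replicate block 320 panel genes, 10 pathway genes and 4 bHLH genes were called, TGFBR2 being lost (adjusted p = 0.0611). Over 17 named pathway and bHLH genes and 289 fits, 265 kept direction and side of the threshold, 21 lost the call and 1 gained it. TWIST1, which was not called, changed sign in 2 (−0.1417 under quantile normalization and −0.0136 without high density replicate 3, in a range of −0.0136 to 0.2318 without 1 sample), and the cause was not tested. Tests on recovered counts (edgeR, DESeq2) were planned but not run, since the scaling step of 1 sample was too near 1 to pass a check on units. Values were whole multiples of a step in that sample as in the others. Depth limits BMP4 most, with 18 to 24 barcodes at high density.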
